A study of Mus musculus with 12 samples.

Results

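The genes described here are 29 named components and close outputs of the circadian clock, measured in whole mouse liver. They were chosen by name and role, with no threshold on a measured value but with earlier results of these data known: the repressing arm of the loop (Per1, Per2, Per3, Cry1, Cry2, Ciart, Bhlhe40 and Bhlhe41), its nuclear receptors (Nr1d1, Nr1d2 and Rora), the D-box factors (Dbp, Tef, Hlf and Nfil3), the activators (Arntl, Npas2 and Clock), enzymes and partners that act on clock proteins (Csnk1a1, Csnk1d, Csnk1e, Btrc and Timeless) and output genes (Usp2, Noct, Wee1, Tsc22d3, Lonrf3 and Por). For 26 of the 29, a probe set that names that gene and no other was listed, and all 26 passed the filter on dim genes, out of 14031 tested genes among 22180 measured. Per2 and Csnk1d lay only on probe sets that name several genes, and no probe set was listed for Por, so these 3 genes have no value here. Bhlhe41 lay above the filter on 10 of the 12 arrays and Lonrf3 on 11, and the other 24 genes on all 12.

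Affymetrix Mouse Gene 2.0 ST arrays were used for liver RNA of male mice of C57BL/6 background, 12 arrays with 3 in each of 4 groups. The groups were Pparβ/δ-null mice on ethanol diet, Pparβ/δ-null mice on control diet, wild-type mice on ethanol diet and wild-type mice on control diet. Pparβ/δ is a nuclear receptor that regulates lipid and glucose metabolism. All mice started at 8 to 10 weeks of age, spent 1 week on the liquid control diet and then received, for 16 weeks, the same diet or one with 4% (v/v) ethanol, and all were housed at 25 °C with 12 h of light and 12 h of darkness. The labels give 10 mice per feeding group and 3 arrays per group. The sources used here do not give how the null allele was made, whether it covers the whole body, or the time of day at which livers were taken. The labels do not say that each array is a separate mouse, so p-values here reflect only how far these samples spread, and that spread may be technical.

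The clock is a feedback loop. CLOCK, or its relative NPAS2, pairs with BMAL1 (the product of Arntl) and binds E-boxes in the genes of the PER and CRY proteins, of the nuclear receptors NR1D1 and NR1D2, and of DBP. PER and CRY then inhibit the activators, NR1D1 and NR1D2 repress Arntl through ROR response elements at which RORA activates it, and DBP, TEF and HLF act through D-boxes at which NFIL3 represses. In mouse liver the transcripts of Arntl and Npas2 peak on the opposite side of the day from those of Dbp and Nr1d1, and the liver clock times many genes of lipid, glucose and drug metabolism.

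To show the elements through which these genes are known to regulate each other, the RefSeq promoter windows (GRCm38.p6) of 23 of the 29 genes were searched. Each window of 300 bases runs from 250 before a gene's start to 50 after it. The E-box CACGTG, which reads the same on both strands, was found in windows of 6 of the 23 genes (26.1%), Bhlhe41, Ciart, Cry1, Lonrf3, Per1 and Tef, against 8.09% of 27025 genes with a window. The D-box, searched as TTATGTAA or TTACGTAA on both strands, was found for 2 of the 23 (8.7%), Per3 and Timeless, against 1.23% of all genes. The core of the ROR element, TAGGTCA on either strand, was found for 2 of the 23 (8.7%), Arntl and Nfil3, against 2.97% of all genes. The PPAR element, searched as a pair of AGGTCA copies with 1 base between them on either strand, which can share AGGTCA with the ROR core, was found for 0 of the 23, against 0.0481% of all genes. So rare an exact match could hardly appear among 23 genes, so this 0 does not show that they lack PPAR elements. A gene can have several windows, and these 23 genes had 33, against 32851 windows of 27025 genes. Counted by window, the E-box was found in 7 of the 33, against 7.15% of all windows. The D-box and the ROR core were found in 2 of the 33 each, against 1.06% and 2.61% of all windows. A match is a description of the letters and not of binding. 5 windows are printed 5′ to 3′ on the gene's strand with the matches in capitals, chosen to show the elements in genes that the results below turn on. Those of Ciart (chr3:95882179-95882478, minus strand) and Tef (chr15:81802423-81802722, plus strand) carry E-boxes, that of Per3 (chr4:151044616-151044915, minus strand) carries D-boxes, and those of Arntl (chr7:113207261-113207560, plus strand) and Nfil3 (chr13:52980990-52981289, minus strand) carry the ROR core, which in Nfil3 is written on the opposite strand.
Ciart: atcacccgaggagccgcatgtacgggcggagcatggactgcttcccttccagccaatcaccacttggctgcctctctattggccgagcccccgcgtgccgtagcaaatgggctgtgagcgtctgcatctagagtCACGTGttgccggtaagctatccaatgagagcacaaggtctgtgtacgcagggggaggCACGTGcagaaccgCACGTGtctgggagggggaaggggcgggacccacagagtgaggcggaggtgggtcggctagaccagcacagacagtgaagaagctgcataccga
Tef: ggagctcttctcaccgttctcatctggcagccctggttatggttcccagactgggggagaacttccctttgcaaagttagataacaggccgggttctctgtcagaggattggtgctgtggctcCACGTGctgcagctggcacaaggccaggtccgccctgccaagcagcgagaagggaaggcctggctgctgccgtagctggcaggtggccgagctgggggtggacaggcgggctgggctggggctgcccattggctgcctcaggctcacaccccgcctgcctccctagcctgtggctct
Per3: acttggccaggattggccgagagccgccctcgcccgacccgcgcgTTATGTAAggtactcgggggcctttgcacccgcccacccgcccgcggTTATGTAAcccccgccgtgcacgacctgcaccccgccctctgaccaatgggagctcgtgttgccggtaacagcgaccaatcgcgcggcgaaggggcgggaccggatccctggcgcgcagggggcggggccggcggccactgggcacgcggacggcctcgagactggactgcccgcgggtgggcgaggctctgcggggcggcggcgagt
Arntl: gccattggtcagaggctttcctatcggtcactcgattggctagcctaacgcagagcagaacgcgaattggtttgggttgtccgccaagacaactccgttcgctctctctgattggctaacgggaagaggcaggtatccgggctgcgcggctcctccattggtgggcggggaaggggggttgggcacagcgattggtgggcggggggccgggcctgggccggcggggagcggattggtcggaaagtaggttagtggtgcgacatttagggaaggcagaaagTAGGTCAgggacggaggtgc
Nfil3: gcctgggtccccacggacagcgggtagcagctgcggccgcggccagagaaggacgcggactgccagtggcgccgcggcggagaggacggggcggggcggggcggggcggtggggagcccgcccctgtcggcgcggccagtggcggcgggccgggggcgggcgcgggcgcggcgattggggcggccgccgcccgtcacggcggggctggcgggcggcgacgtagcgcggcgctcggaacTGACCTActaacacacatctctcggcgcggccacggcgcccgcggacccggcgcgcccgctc

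Ciart held 3 E-boxes, which began 116, 58 and 44 bases before the gene's start, and Per3 held 2 D-boxes, which began 205 and 158 bases before it. The ROR core of Arntl began 31 bases after the start.

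Before the comparisons, the arrays themselves were compared. Array medians on the log2 scale lay between 5.55 and 5.62, and arrays of a group correlated at r from 0.985 to 0.993 over all tested genes. On wild-type control 3, 17 of the 26 clock genes (65.4%) had their lowest or highest value of the 12 arrays, against 22.25% of all tested genes. On null control 1 this held for 13 of the 26 (50%), against 18.73% of all genes, and on the other 10 arrays for 0 to 6 of the 26. Wild-type control 3 combined the highest Arntl (9.62), Npas2 (7.68), Clock (11.19) and Nfil3 (9.30) with the lowest Dbp (7.37), Nr1d1 (8.65), Per3 (6.10) and Wee1 (5.92). Null control 1 was at the other end, with the highest Dbp (10.75), Per3 (8.74), Ciart (9.81) and Wee1 (9.05) and the lowest Nfil3 (7.49). Null control 3 had 0 of the 26 at either end, and it was the 1 null array that lay inside the wild-type range for Arntl, Per3, Ciart, Hlf, Usp2 and Dbp. Results are given for all 12 arrays and, where it changes a call, without such an array. The targeted gene, Ppard, lay between 7.88 and 8.06 in null ethanol and between 7.69 and 7.91 in null control livers, against 7.77 to 7.96 in wild-type ethanol and 7.64 to 8.01 in wild-type control livers (difference 0.08 ± 0.08, limma adjusted p = 0.621). The sources used here do not say whether its probes lie in the part that the null allele lacks, and these levels do not check the genotype labels.

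**Figure D1:**
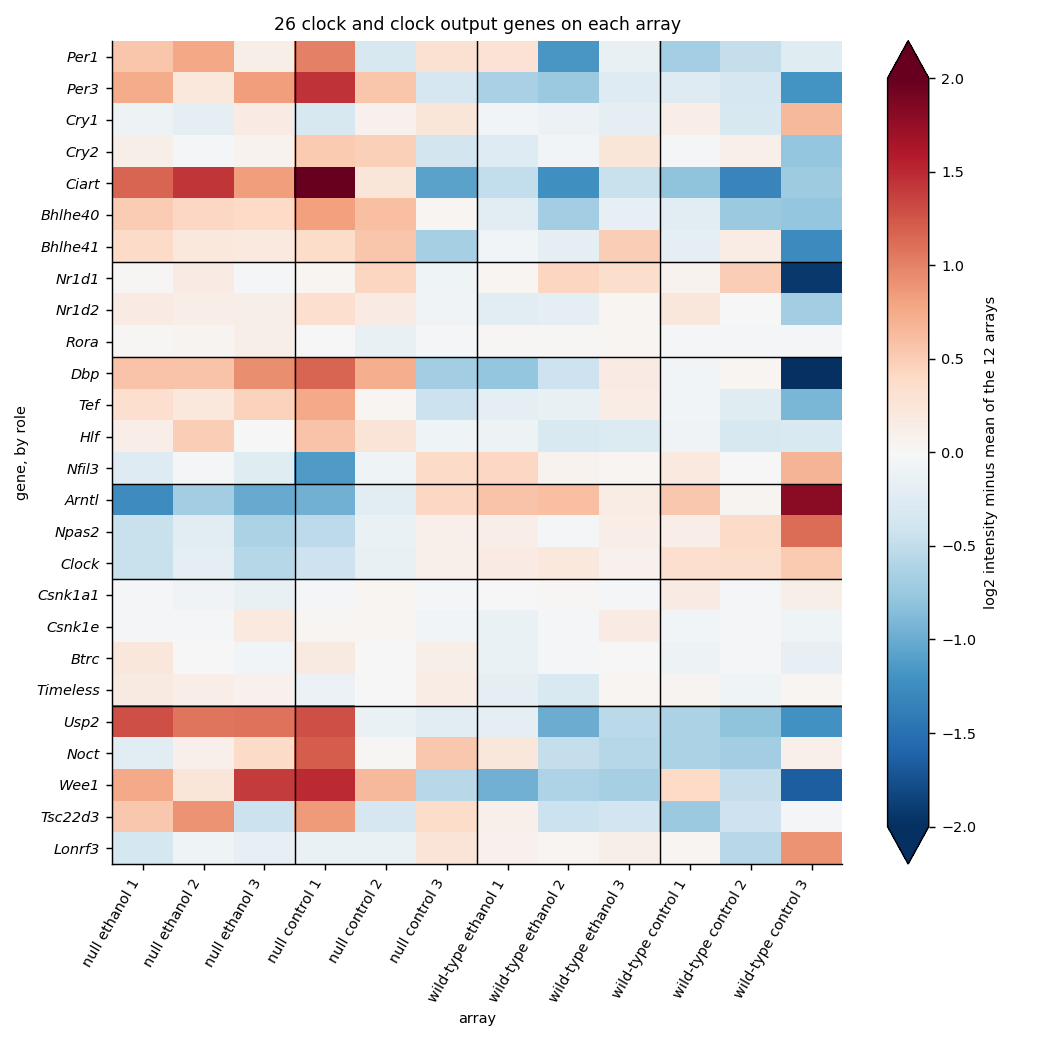
Heat map of the 26 clock and clock output genes (down, by role) on each of the 12 arrays (across; null ethanol, null control, wild-type ethanol, wild-type control), coloured by log2 intensity minus the gene's mean over the 12 arrays. Wild-type control 3, at the right edge, is low for Dbp, Nr1d1 and Wee1 and high for Arntl and Npas2, and null control 1 shows the opposite colours for these genes except Nr1d1.

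Averaged over the diets, 9 of the 26 clock genes differed between Pparβ/δ-null and wild-type livers at a limma adjusted p under 0.05, where 7.00% of all tested genes did. The 6 that rose in null livers were Per3, Ciart, Bhlhe40, Hlf, Usp2 and Wee1, where 3.01% of all tested genes rose, and the 3 that fell were all 3 activators, Arntl, Npas2 and Clock, where 3.98% of all tested genes fell. The median log2 difference, null minus wild-type, was 0.27 over the 26 genes and -0.00 over all tested genes. Positive differences were found for 18 of the 26 and negative ones for 8. At an unadjusted p under 0.05 there were 16 of the 26, and 3005 of the 14031 tested genes. All differences below are log2 differences, null minus wild-type averaged over the diets, with the standard error after ±, unless a diet is named.

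**Figure D2:**
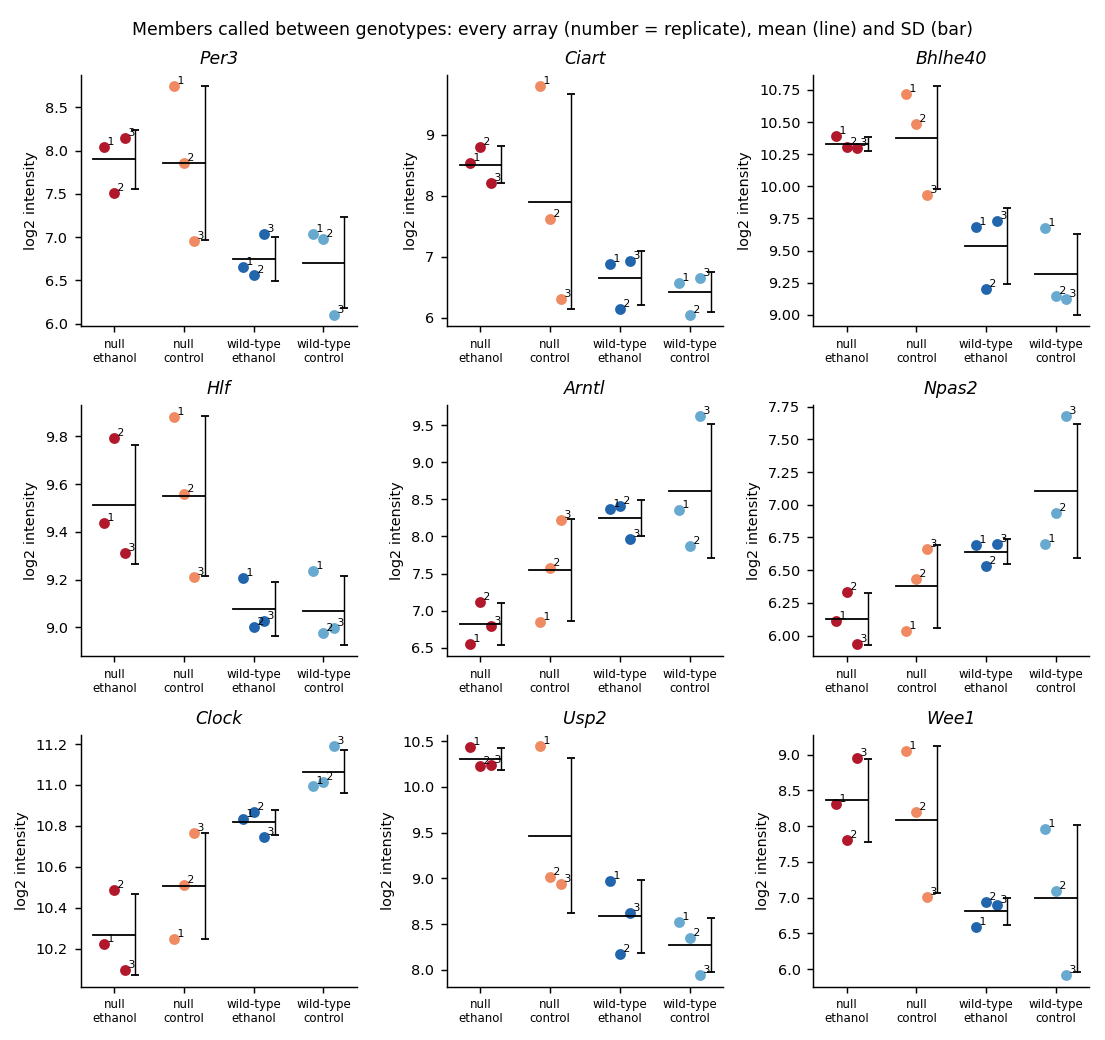
Log2 intensity (vertical axes, scaled per gene) of the 9 clock genes called between the genotypes, on every array of the 4 groups, with the replicate number beside each point, the group mean as a line and the SD as a bar (n = 3 per group). For Bhlhe40 every null array (9.93 to 10.72) lies above every wild-type array (9.12 to 9.73); for the other 8 genes the null and wild-type ranges overlap.

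The activators were lower in null livers. Arntl encodes BMAL1, the obligate partner of CLOCK and NPAS2. Its log2 intensity was 6.55, 7.12 and 6.80 in null ethanol livers, 6.85, 7.57 and 8.22 in null control livers, 8.38, 8.40 and 7.96 in wild-type ethanol livers and 8.35, 7.86 and 9.62 in wild-type control livers. Of the 6 null arrays only null control 3 reached the wild-type range, and wild-type control 3 stood above all others. Arntl fell by 1.24 ± 0.28 in null livers (2.37-fold lower, limma adjusted p = 0.0165), and by 0.99 (adjusted p = 0.0171) without wild-type control 3.

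Clock, the DNA-binding partner of BMAL1, was measured at 10.22, 10.48 and 10.10 in null ethanol livers and 10.25, 10.51 and 10.76 in null control livers, against 10.83, 10.87 and 10.75 in wild-type ethanol livers and 10.99, 11.01 and 11.19 in wild-type control livers. Within each diet every null array lay below every wild-type array, and across diets null control 3 and wild-type ethanol 3 met at the border. The difference was -0.55 ± 0.09 (1.47-fold lower in null, limma adjusted p = 0.00354). Npas2, which can stand in for Clock, was measured at 6.11, 6.33 and 5.93 in null ethanol livers and 6.04, 6.43 and 6.66 in null control livers, against 6.69, 6.53 and 6.70 in wild-type ethanol livers and 6.70, 6.94 and 7.68 in wild-type control livers. It too was lower on every null array than on every wild-type array of the same diet. Npas2 fell by 0.62 ± 0.15 (1.54-fold lower, limma adjusted p = 0.029), and this call was lost in 6 of the 12 fits that left out 1 array (without null ethanol 1 or 3, null control 1 or 2, or wild-type ethanol 1 or 3).

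In the repressing arm, 3 of the 7 measured genes rose in null livers and none fell, where 3.01% and 3.98% of all tested genes did. The median difference of the arm was 0.81. Bhlhe40 encodes DEC1, a basic helix-loop-helix repressor that competes for E-boxes. It was measured at 10.39, 10.31 and 10.30 in null ethanol livers and 10.72, 10.49 and 9.93 in null control livers, against 9.68, 9.20 and 9.73 in wild-type ethanol livers and 9.68, 9.14 and 9.12 in wild-type control livers. It was the 1 clock gene of the 26 for which all 6 null arrays lay on one side of all 6 wild-type arrays, which held for 3.58% of all tested genes. Bhlhe40 rose by 0.93 ± 0.14 (1.90-fold, limma adjusted p = 0.00201), the smallest p among the 26.

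Per3, a PERIOD protein gene, was measured at 8.04, 7.51 and 8.14 in null ethanol livers and 8.74, 7.86 and 6.96 in null control livers, against 6.65, 6.56 and 7.04 in wild-type ethanol livers and 7.04, 6.97 and 6.10 in wild-type control livers. Only null control 3 lay within the wild-type range. Per3 rose by 1.15 ± 0.26 (2.22-fold, limma adjusted p = 0.0178), and by 0.998 (adjusted p = 0.0388) without wild-type control 3. Ciart encodes CHRONO, a repressor of the BMAL1 complex. It showed the largest difference of the 26: 8.54, 8.80 and 8.21 in null ethanol livers and 9.81, 7.61 and 6.30 in null control livers, against 6.88, 6.14 and 6.93 in wild-type ethanol livers and 6.57, 6.05 and 6.66 in wild-type control livers. The 3 null control arrays alone spanned from within the wild-type range to the highest value of the 12 arrays. Ciart rose by 1.67 ± 0.43 (3.19-fold, limma adjusted p = 0.0347), and the adjusted p was 0.0526 without wild-type control 3. The Ciart call was kept in 3 of the 12 fits without 1 array (those without null ethanol 3, null control 1 or null control 3).

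The other members of the repressing arm did not pass the test. Per1, a PERIOD protein gene that glucocorticoids also induce, was measured at 9.30, 9.52 and 8.87 in null ethanol livers and 9.76, 8.42 and 9.05 in null control livers, against 9.04, 7.58 and 8.60 in wild-type ethanol livers and 8.07, 8.27 and 8.51 in wild-type control livers. The groups overlapped, and the difference was 0.81 ± 0.25 (95% interval 0.27 to 1.35, limma adjusted p = 0.0719). Its adjusted p was under 0.05 without null control 2 or without wild-type ethanol 1. Cry1 and Cry2 encode the cryptochromes. Their differences were -0.04 ± 0.14 (interval -0.35 to 0.28) and 0.26 ± 0.17 (interval -0.11 to 0.64). Bhlhe41, the gene of DEC2, differed by 0.35 ± 0.25 (interval -0.18 to 0.89).

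**Figure D3:**
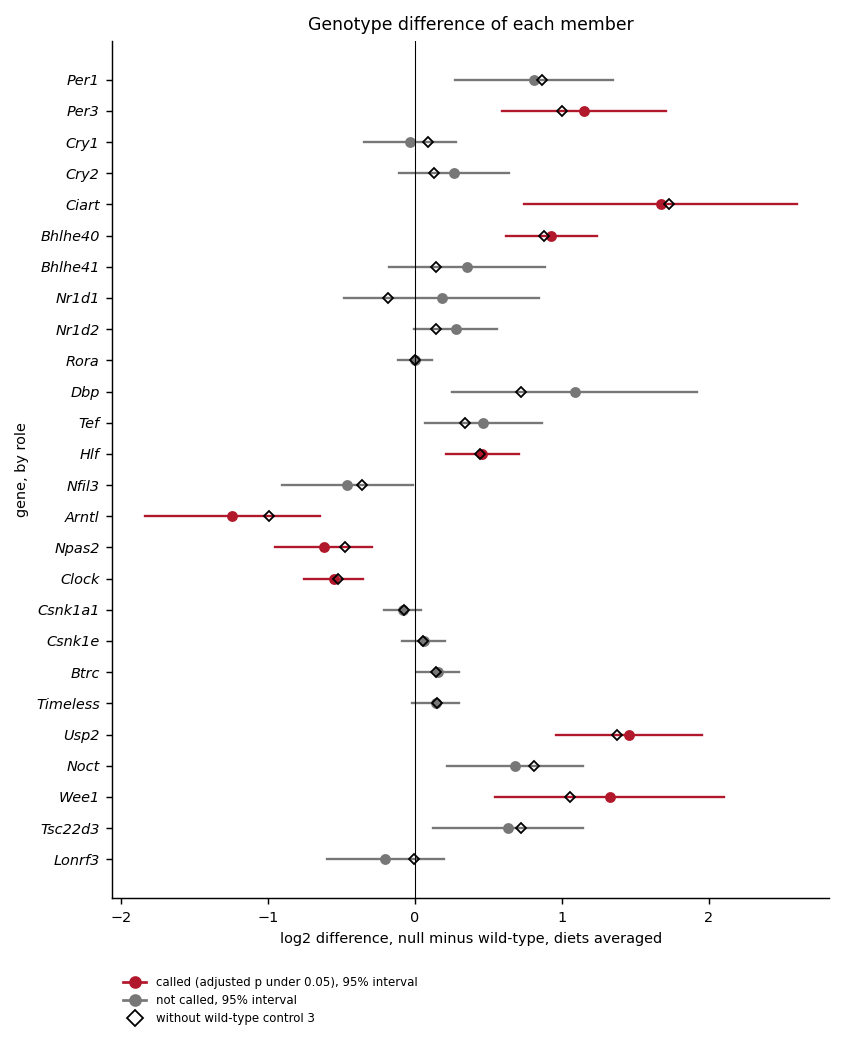
Log2 difference (horizontal axis), null minus wild-type averaged over the diets, of each of the 26 genes (down, by role), with its 95% interval. Red points passed a limma adjusted p of 0.05 and grey ones did not, and open diamonds give the difference without wild-type control 3. Arntl (-1.24), Npas2 (-0.62) and Clock (-0.55) lie left of 0, and Ciart (1.67), Usp2 (1.46), Wee1 (1.33) and Per3 (1.15) lie farthest to the right.

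None of the 3 nuclear receptor genes passed the test. Nr1d1 encodes REV-ERBα, which represses Arntl. It was measured at 10.60, 10.74 and 10.56 in null ethanol livers and 10.61, 11.00 and 10.49 in null control livers, against 10.62, 11.00 and 10.92 in wild-type ethanol livers and 10.65, 11.06 and 8.65 in wild-type control livers. The null values lay within the wild-type range, and wild-type control 3 lay far below the other 11 arrays. The difference was 0.18 ± 0.31 (limma adjusted p = 0.79), and without wild-type control 3 its sign turned, at -0.19 ± 0.12 (adjusted p = 0.415). Nr1d2, the gene of REV-ERBβ, differed by 0.28 ± 0.13 (interval -0.00 to 0.56, adjusted p = 0.24). Rora, whose product activates Arntl, lay between 8.84 and 9.10 on all 12 arrays and differed by -0.00 ± 0.05 (interval -0.12 to 0.12).

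Of the D-box factors, Hlf passed the test. Hlf was measured at 9.44, 9.79 and 9.31 in null ethanol livers and 9.88, 9.56 and 9.21 in null control livers, against 9.21, 9.0 and 9.02 in wild-type ethanol livers and 9.24, 8.98 and 9.0 in wild-type control livers. Only null control 3 lay within the wild-type range. Hlf rose by 0.46 ± 0.11 (1.37-fold, limma adjusted p = 0.0305). That call was kept in 4 of the 12 fits without 1 array (those without null ethanol 3, null control 3, wild-type ethanol 1 or wild-type control 1), with adjusted p from 0.00951 to 0.075 over all alternatives.

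Dbp, a direct BMAL1 target with a wide daily swing in liver, was measured at 10.15, 10.16 and 10.51 in null ethanol livers and 10.75, 10.32 and 8.89 in null control livers, against 8.81, 9.17 and 9.75 in wild-type ethanol livers and 9.53, 9.62 and 7.37 in wild-type control livers. Of the null arrays only null control 3 lay below the highest wild-type array. The difference was 1.09 ± 0.39 (interval 0.25 to 1.92, limma adjusted p = 0.117), and it was 1.36 (adjusted p = 0.0418) without null control 3. With null control 3 and wild-type control 3 both left out, a choice made after the values were seen, the difference was 0.99 ± 0.17 (adjusted p = 0.00605). Tef differed by 0.46 ± 0.18 (adjusted p = 0.158) on the probe set used. A second, dimmer probe set of Tef averaged 5.65 in null livers and 5.60 in wild-type livers. Nfil3, the repressor at D-boxes, differed by -0.46 ± 0.21 (interval -0.91 to -0.02, adjusted p = 0.216).

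Csnk1a1 and Csnk1e encode casein kinases that phosphorylate PER, Btrc encodes a ubiquitin ligase subunit that marks PER for degradation, and Timeless encodes a replication fork protein related to a fly clock protein. None of the 4 passed the test. Their differences lay between -0.08 and 0.16, and their 95% intervals lay within -0.21 to 0.30. These genes were among the least variable of the 26: Csnk1a1 lay between 9.13 and 9.45 on all 12 arrays and Csnk1e between 6.95 and 7.27.

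Of the 5 measured output genes, 2 rose in null livers, where 3.01% of all tested genes did. Usp2 encodes a deubiquitinase under clock control. It was measured at 10.44, 10.23 and 10.24 in null ethanol livers and 10.44, 9.02 and 8.94 in null control livers, against 8.97, 8.17 and 8.62 in wild-type ethanol livers and 8.52, 8.35 and 7.94 in wild-type control livers. Within each diet the genotypes did not overlap, and only null control 3 lay below the highest wild-type array. Usp2 rose by 1.46 ± 0.23 (2.75-fold, limma adjusted p = 0.00226). Wee1, a cell cycle kinase gene with E-box control, was measured at 8.31, 7.81 and 8.96 in null ethanol livers and 9.05, 8.20 and 7.00 in null control livers, against 6.59, 6.94 and 6.89 in wild-type ethanol livers and 7.96, 7.09 and 5.92 in wild-type control livers. The genotypes overlapped on the control diet and not on the ethanol diet. Wee1 rose by 1.33 ± 0.36 (2.51-fold, limma adjusted p = 0.0441), and by 1.06 with an adjusted p of 0.0821 without wild-type control 3. The Wee1 call was kept in 3 of the 12 fits without 1 array (those without null ethanol 2, null control 3 or wild-type control 1).

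Noct, the gene of the phosphatase nocturnin, was measured at 7.24, 7.56 and 7.83 in null ethanol livers and 8.67, 7.48 and 8.00 in null control livers, against 7.68, 6.98 and 6.88 in wild-type ethanol livers and 6.83, 6.76 and 7.56 in wild-type control livers. The groups overlapped, and the difference was 0.68 ± 0.21 (interval 0.22 to 1.14, limma adjusted p = 0.0759). It was 0.81 with an adjusted p of 0.0401 without wild-type control 3, and it passed also without null control 2 or wild-type ethanol 1. Tsc22d3, the gene of the glucocorticoid-induced leucine zipper protein, differed by 0.63 ± 0.24 (interval 0.12 to 1.14, adjusted p = 0.136), and passed without null ethanol 3. Lonrf3, a RING finger gene, differed by -0.20 ± 0.18 (interval -0.60 to 0.19).

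Per3, Bhlhe40, Arntl, Clock and Usp2 were called in all 12 fits that left out 1 array. Without wild-type control 3, 7 of the 26 were called (these 5, Npas2 and Noct), where 5.70% of all tested genes were. Without wild-type control 3 and null control 3, a choice made after the values were seen, 10 of the 26 were called (the 9 above and Dbp), where 5.05% of all tested genes were.

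On the control diet alone, Bhlhe40 rose and Clock fell in null livers, so 2 of the 26 were called, where 5.10% of all tested genes were (3.21% higher and 1.89% lower). Bhlhe40 differed by 1.06 ± 0.20 (limma adjusted p = 0.0118) and Clock by -0.56 ± 0.13 (adjusted p = 0.0312). Usp2 differed by 1.20 ± 0.32 (adjusted p = 0.0518) and Per3 by 1.15 ± 0.37 (adjusted p = 0.0841). Without null control 3, 6 of the 26 were called (Per3, Hlf, Ciart, Bhlhe40, Clock and Usp2), where 3.44% of all tested genes were. Without null control 2, 0 of the 26 were called, where 1.37% of all tested genes were. The Clock call was lost also without null control 1, wild-type control 1 or wild-type control 3, and that of Bhlhe40 in no other such fit. On the control diet 5 of the 26 had null arrays all on one side of the wild-type arrays, with Bhlhe40, Btrc and Usp2 above and Npas2 and Clock below, where 24.7% of all tested genes did.

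On the ethanol diet alone, Usp2 rose in null livers, and it was the 1 call among the 26, where 1.79% of all tested genes were called (0.456% higher and 1.33% lower). Usp2 differed by 1.72 ± 0.32 (3.29-fold, limma adjusted p = 0.0167), and its call was lost without null ethanol 1, wild-type ethanol 2 or wild-type ethanol 3. With trend and robust estimation of the variance the Usp2 call was lost too, and Clock was the 1 call. Clock differed by -0.55 ± 0.13 (adjusted p = 0.0564), Bhlhe40 by 0.80 ± 0.20 (adjusted p = 0.071) and Arntl by -1.42 ± 0.39 (adjusted p = 0.0927). Ciart differed by 1.86 ± 0.61 and Wee1 by 1.55 ± 0.51, with adjusted p of 0.149 and 0.152. These standard errors come from 1 spread per gene shared by all 4 groups. The SD of Ciart was 0.30 in null ethanol and 0.44 in wild-type ethanol livers. In null control livers it was 1.77, and in wild-type control livers 0.33. On this diet the null and wild-type arrays did not overlap for 16 of the 26 genes, where this held for 24.1% of all tested genes. The 10 above were Per3, Nr1d2, Dbp, Tef, Hlf, Ciart, Bhlhe40, Timeless, Usp2 and Wee1, and the 6 below were Arntl, Npas2, Clock, Nfil3, Csnk1a1 and Lonrf3. When the ethanol arrays were fitted on their own, 6 of the 26 were called (Per3, Ciart, Bhlhe40, Arntl, Usp2 and Wee1), where 1.99% of all tested genes were.

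The effect of the ethanol diet passed the test for 0 of the 26 genes in either genotype. In null livers, where 0.00713% of all tested genes were called (0% higher), the smallest limma adjusted p among the 26 was 0.356, for Usp2 at 0.84 ± 0.32 (ethanol minus control, interval 0.13 to 1.54). Usp2 was the 1 clock gene with an unadjusted p under 0.05 there, against 1709 of all tested genes. In wild-type livers, where 0.0927% of all tested genes were called (0.0855% higher), the smallest adjusted p was 0.349, for Npas2 at -0.46 ± 0.22, and 0 of the 26 had an unadjusted p under 0.05, against 2035 of all tested genes. Arntl differed by -0.73 ± 0.39 in null livers and by -0.37 ± 0.39 in wild-type livers, and Nr1d1 by -0.07 ± 0.43 in null livers and by 0.73 ± 0.43 in wild-type livers. Without wild-type control 3, the wild-type difference of Nr1d1 was -0.0061 ± 0.17, and that of Arntl turned sign, at 0.14 ± 0.31.

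Averaged over the genotypes, ethanol again gave 0 calls among the 26, where 0.0143% of all tested genes were called. Clock (-0.24 ± 0.09), Usp2 (0.58 ± 0.23) and Npas2 (-0.36 ± 0.15) had unadjusted p under 0.05, with limma adjusted p of 0.344, 0.358 and 0.386. All 3 activators had negative differences in both genotypes, but that of Arntl in wild-type livers rested on wild-type control 3. Without that array the wild-type difference was 0.14 ± 0.31 for Arntl, -0.18 ± 0.17 for Npas2 and -0.19 ± 0.15 for Clock. Clock was lower on every wild-type ethanol array than on every wild-type control array, while its null arrays overlapped between the diets. Rora was the 1 gene of the 26 that lay higher on every ethanol array than on every control array in both genotypes, at 9.01 to 9.10 in null ethanol against 8.84 to 8.98 in null control livers, and at 9.0 to 9.03 in wild-type ethanol against 8.95 to 8.97 in wild-type control livers. Its averaged difference was 0.09 ± 0.05 (adjusted p = 0.51). Counted in either direction, the diets did not overlap for 1 of the 26 genes in null livers, where this held for 18.6% of all tested genes. In wild-type livers they did not overlap for 2 of the 26, Rora and Clock, where this held for 19.4% of all tested genes. The share of all genes separated in both genotypes was not counted.

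The interaction, the ethanol effect in null minus that in wild-type livers, gave 0 calls among the 26, where 0.0143% of all tested genes were called, and 0 of the 26 had an unadjusted p under 0.05, against 2110 of all tested genes. The smallest limma adjusted p was 0.394, for Timeless at 0.28 ± 0.15. The largest difference was -0.80 ± 0.61 for Nr1d1 (interval -2.12 to 0.53), and for Usp2 it was 0.52 ± 0.46 (interval -0.47 to 1.51). The Nr1d1 value rested on wild-type control 3, since without that array the wild-type ethanol effect on Nr1d1 was -0.0061 ± 0.17. The standard error of the interaction was 0.55 for Arntl and 0.86 for Ciart.

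The clock genes were among the most variable genes between arrays of a group. The SD within groups, pooled over the 4 groups, had a median of 0.390 over the 26 genes and 0.144 over all tested genes, and 19 of the 26 lay in the top 10% of all genes. The spread was uneven across groups: the median SD was 0.140 for clock genes and 0.123 for all genes in null ethanol livers, 0.450 and 0.119 in null control livers, 0.194 and 0.103 in wild-type ethanol livers, and 0.401 and 0.139 in wild-type control livers. In both control diet groups array 3 was the low one for Dbp, Per3 and Wee1 and the high one for Arntl, Npas2 and Nfil3. Ciart had a pooled SD above 99.93% of tested genes and Dbp above 99.84%, whereas Csnk1a1 lay above 3.78% and Rora above 0.563%. The standard error of the genotype difference was 0.43 for Ciart, 0.39 for Dbp and 0.05 for Rora, against a median of 0.0821 over all tested genes.

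**Figure D4:**
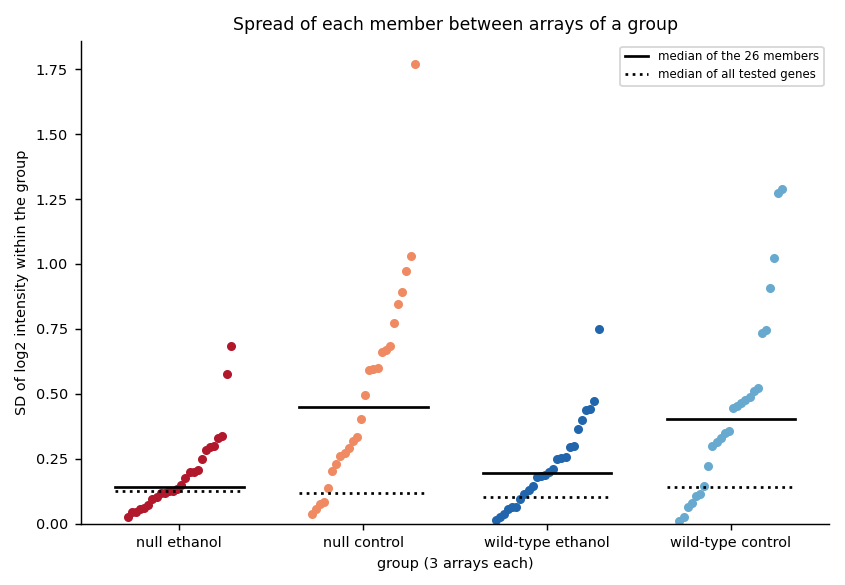
SD of log2 intensity between the 3 arrays of a group (vertical axis), 1 point for each of the 26 clock genes, in the 4 groups (across), with the median of the 26 genes as a solid line and the median of all tested genes as a dotted line. The solid line lies at 0.140 in null ethanol and 0.450 in null control livers, and at 0.194 in wild-type ethanol and 0.401 in wild-type control livers, while the dotted line stays between 0.103 and 0.139.

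Over all 12 arrays, pairs of clock genes correlated within groups more often than pairs of all tested genes. With each group's mean removed, 85 of the 325 pairs of the 26 genes (26.2%) correlated above 0.7 in size over the 12 arrays, 46 positively and 39 negatively, against 5.31% of all pairs of tested genes. These correlations share the same 12 arrays, and their excess over all genes rests largely on array 3 of both control groups. Without those 2 arrays 43 of the 325 pairs (13.2%; 28 positive and 15 negative) exceeded 0.7, against 10% of all pairs of tested genes. With all 12 arrays in, the closest pairs were Per3 with Tef (r = 0.97), Cry2 with Dbp (r = 0.97) and Cry2 with Bhlhe41 (r = 0.96). Per3 with Clock (r = -0.95) and Npas2 with Wee1 (r = -0.95) came next. Of the 85 pairs above 0.7 in size over the 12 arrays, Arntl, Dbp, Tef and Cry2 each took part in 13. Per1 and Tsc22d3 took part in 1 each, and Rora, Csnk1a1, Csnk1e, Btrc, Timeless and Noct in 0.

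For 8 pairs the correlation was tested with an exact two-sided permutation of arrays within groups, with Benjamini-Hochberg adjustment over the 8 pairs. Arntl and Dbp were opposed (r = -0.92, permutation p = 0.00926, adjusted p = 0.0185; rho = -0.84, p = 0.0116, adjusted p = 0.0231). The 2 arrays with Arntl deviations from the group mean farthest from the median deviation were wild-type control 2 and 3. This relation was kept without them (r = -0.86). For each other pair the 2 farthest arrays were chosen in this way on the deviations of its first named gene. Over the 6 null arrays r of Arntl and Dbp was -0.86, and over the 6 wild-type arrays it was -0.96. Without array 3 of both control groups r was -0.61. Dbp and Tef moved in the same direction (r = 0.91, permutation p = 0.00463, adjusted p = 0.0185; rho = 0.90, p = 0.00617, adjusted p = 0.0165), with r = 0.74 without the 2 farthest arrays, which were array 3 of both control groups. Dbp and Nfil3 were opposed (r = -0.79, permutation p = 0.00772, adjusted p = 0.0185; rho = -0.85, p = 0.0054, adjusted p = 0.0165), with r = -0.64 without the same 2 arrays. These 3 relations had the same sign in each genotype.

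Per1 and Tsc22d3, both also known as glucocorticoid-induced genes, formed a pair of their own (r = 0.79, permutation p = 0.00231, adjusted p = 0.0185; rho = 0.87, p = 0.00231, adjusted p = 0.0165). Without the 2 farthest arrays (wild-type ethanol 2 and null control 2) r was 0.91, and it was 0.91 over the 6 null and 0.70 over the 6 wild-type arrays. Neither gene followed Dbp, with r of -0.11 for Per1 and -0.33 for Tsc22d3. The other 4 tested pairs did not pass: Arntl with Npas2 (r = 0.83, rho = 0.68, permutation adjusted p of 0.079 and 0.111), Dbp with Nr1d1 (r = 0.81, rho = 0.70, 0.0864 and 0.111), Arntl with Nr1d1 (r = -0.74, rho = -0.45, 0.134 and 0.338) and Dbp with Ciart (r = 0.40, rho = 0.12, 0.424 and 0.745). The relations of Nr1d1 rested on the 2 farthest arrays of each pair. With Dbp, r was 0.08 without wild-type control 3 and null control 3. With Arntl, r was -0.10 without wild-type control 2 and 3, and it was -0.07 over the 6 null and -0.96 over the 6 wild-type arrays. Ciart followed Dbp over the 6 null arrays (r = 0.84) and not over the 6 wild-type arrays (r = -0.31), a difference that was not tested. Without wild-type control 3 and null control 3, r of this pair was 0.30. On null control 1, 2 and 3 Ciart deviated by 1.90, -0.29 and -1.61, and Dbp by 0.76, 0.33 and -1.10. On null ethanol 1, 2 and 3 Ciart deviated by 0.02, 0.29 and -0.31, and Dbp by -0.12, -0.11 and 0.24.

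**Figure D5:**
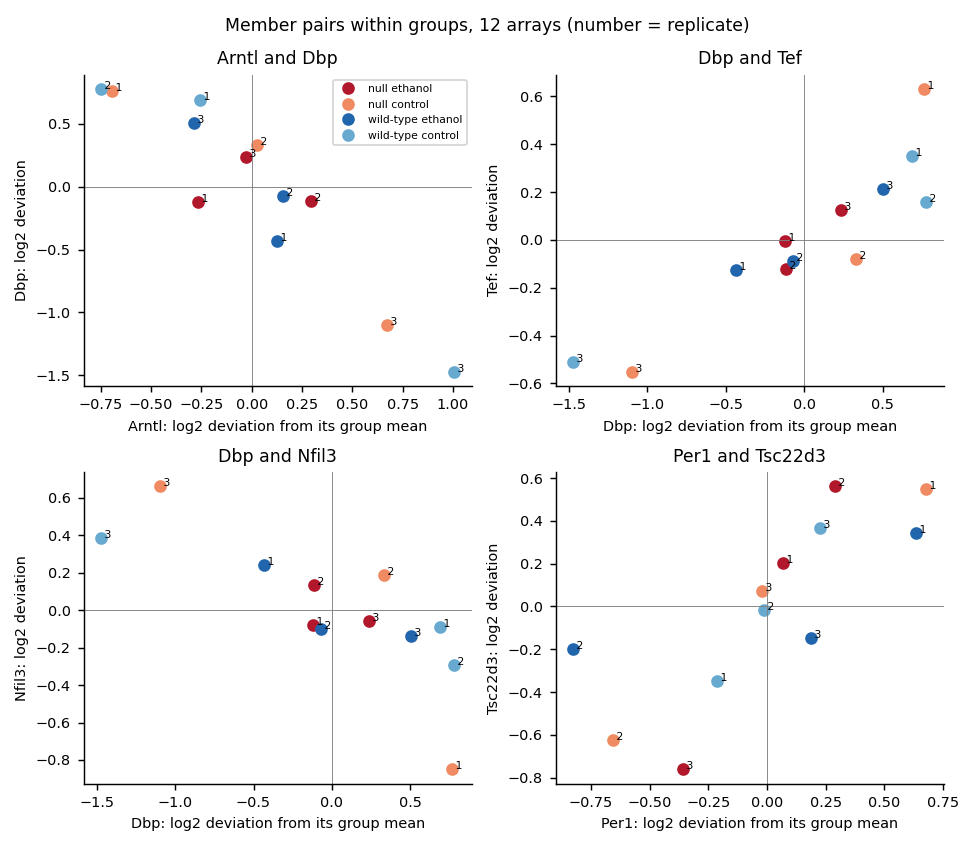
Log2 deviation from the group mean of 4 pairs of clock genes (Arntl and Dbp, Dbp and Tef, Dbp and Nfil3, Per1 and Tsc22d3), 1 point per array, coloured by group and numbered by replicate. In the first 3 panels array 3 of both control groups sits at the far end (r = -0.92, 0.91 and -0.79), and in the last panel (r = 0.79) null control 3 sits near the middle and wild-type control 3 above and right of it, at 0.23 for Per1 and 0.37 for Tsc22d3.

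Other genes of the clock and its surroundings were read from lists. Of 22 tested other clock regulators, such as kinases, phosphatases and chromatin cofactors, 0 were called between the genotypes, and the median difference was -0.07. The 2 with the smallest p were the phosphatase subunit gene Ppp1cc (-0.17 ± 0.07, limma adjusted p = 0.182) and the acetyltransferase gene Ep300 (0.16 ± 0.07, adjusted p = 0.205). Of 22 tested other rhythmic liver genes, 3 rose and 3 fell in null livers, where 3.01% and 3.98% of all tested genes did. Their median was 0.17. The 4 with the smallest p were Rgs16, a G protein signalling regulator (3.02 ± 0.24), Elovl3, a fatty acid elongase (-1.17 ± 0.20), the transferrin receptor gene Tfrc (-0.65 ± 0.12) and the glucose transporter gene Slc2a2 (0.39 ± 0.08).

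The liver clock responds to feeding, glucocorticoids and temperature. For the counts that follow, 3.01% of all tested genes rose and 3.98% fell in null livers. Of 10 tested feeding and fasting genes, 3 rose and 0 fell in null livers, with a median of 0.14: the hepatokine Fgf21 (1.15 ± 0.19, limma adjusted p = 0.00251), the lipogenic regulator Srebf1 (1.05 ± 0.18, adjusted p = 0.0045) and Txnip (0.59 ± 0.14, adjusted p = 0.0242). Of 14 glucocorticoid response genes 1 rose, the phosphatase gene Dusp1 (1.21 ± 0.16, adjusted p = 0.000681), with a list median of 0.04. Of 8 tested temperature response genes 4 fell and 0 rose, with a median of -0.43. These were heat shock protein genes, Hspa1b (-1.36 ± 0.29, adjusted p = 0.0132), Hsph1 (-0.77 ± 0.19, adjusted p = 0.0255), Hsp90aa1 (-0.42 ± 0.11, adjusted p = 0.0334) and Hspb1 (-0.65 ± 0.17, adjusted p = 0.0407). Their part in the differences of the clock genes was not tested. The time of day of collection is not given, so a difference in it between groups cannot be told apart from one of genotype.

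Markers of the liver's cell types were read beside these results. Hepatocyte markers were high on every array (Alb at 13.87 to 14.05), and 0 of 6 were called between the genotypes, with a median of 0.02. Of 10 macrophage and Kupffer cell markers 9 fell in null livers, with a median of -0.54, where 3.98% of all tested genes fell. Their summed intensity ran from 3683 to 5218 in null ethanol and from 2900 to 3893 in null control livers, against 5873 to 7363 in wild-type ethanol and 4698 to 6858 in wild-type control livers. In bulk tissue, fewer cells of a type and less RNA per cell cannot be told apart. Of 7 sinusoidal endothelial markers 2 fell, and 0 of 7 stellate, 0 of 3 cholangiocyte and 0 of 3 lymphocyte markers were called. The 3 neutrophil markers S100a8, S100a9 and Ly6g lay below the filter, at 3.49 to 5.43. The part of these cells in the values of the clock genes was not tested.

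The clock genes lie on many chromosomes, and called genes next to them were counted. Of the 20 tested genes that flank each clock gene, 10 on each side, between 0 and 4 were called between the genotypes, where 7.00% of all tested genes were. Among the 9 called clock genes this count was 4 for Ciart, 3 for Usp2, 2 each for Per3, Arntl, Clock and Bhlhe40, 1 for Wee1 and 0 for Hlf and Npas2. Farther out on chromosome 4, 10 of the 44 tested genes between Per3 and Zfp982 were called, and 3 of the 27 between Per3 and Mtor. These 2 stretches were chosen with earlier results known, and no such stretch was counted for the other clock genes. The part of chromosomal position in the Per3 difference was not tested.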

How the data were processed

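The authors deposited linear intensities, 1 for each probe set on each array, and the submitters' processing notes name RMA as the normalisation. The sources used here do not give the software or its version. Per the labels' protocols, 100 ng of total RNA from each liver sample was amplified, labelled with biotin and hybridised. The deposited intensities ran from 1.82 to 20156, and their log2 was taken here.

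Of 41345 probe sets, 23521 name exactly 1 gene in the platform annotation, 1814 name several and 16010 name none. Only the first kind was used, with the probe set of the highest mean for each gene. A gene was tested if it lay above the 40th percentile of its array on at least 3 arrays, a bound between 5.61 and 5.71 on the log2 scale, so a gene below it is dim and not absent. All 12 arrays entered a single linear fit, with 1 mean for each group, in limma 3.58.1 in R 4.3.3 (lmFit, contrasts.fit and eBayes without trend or robust estimation; 8 residual and 4.95 prior degrees of freedom). Each of 7 comparisons was adjusted by Benjamini-Hochberg over all 14031 tested genes, and called at an adjusted p under 0.05. The number of arrays limits the precision: the standard error had a median of 0.116 between a pair of groups, 0.0821 in the averaged comparisons and 0.164 in the interaction. The steps were tested on simulated data.

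Correlations used deviations from the group means, with all 1296 joint orders of the arrays within groups. Of 10 planned pairs 8 were tested, since 2 hold Per2. Promoter windows came from a RefSeq table of GRCm38.p6, and probe positions were not used here. Named were the 29 clock genes, and of each other list the called genes, up to 4 by smallest p, or else the 2 with the smallest p. The genes, lists, pairs and alternatives were chosen with earlier results of these data known, and the groups come from the labels. Alternatives were no filter, quantile normalization, log2(value + 16), the mean of all probe sets of a gene, eBayes with trend and robust estimation, only the arrays compared, a replicate block, and each array left out in turn. Figures were drawn with matplotlib 3.10.9 in Python 3.11.15.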

Additional observations from a re-analysis of the deposited data

How the results depend on the processing

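Of the 26 clock genes, 9 were called between the genotypes averaged over the diets. This count was 5 without the filter on dim genes (2.99% of the 22180 genes then tested were called), 5 with trend and robust estimation (7.22% of all tested genes), and 5 to 10 when 1 array was left out; it stayed at 9 under the other planned settings. Bhlhe40, Clock and Usp2 were called under all 19 alternatives, 1 of them added after the values were seen, and Per3 and Arntl under 18, with adjusted p of 0.0503 and 0.0515 under trend and robust estimation. Npas2 was called under 12, Hlf under 10, and Ciart and Wee1 under 8 each. On the control diet the count of 2 became 1 without the filter, 3 with log2(value + 16), 0 when only the arrays compared were fitted, and 0 to 6 with 1 array left out. On the ethanol diet the 1 call passed to Clock in place of Usp2 with trend and robust estimation, and the count became 2 with log2(value + 16), 6 with only the arrays compared, 0 to 4 with 1 array left out, and 7 without array 3 of both control groups, a choice made after the values were seen. Beyond the number of genes or arrays that a setting changes, the cause was not tested. Ethanol and interaction gave 0 calls among the 26 under every setting run. No called clock gene changed sign in any setting.

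Nothing in the labels says that a replicate number marks a shared animal or day, and over all tested genes the deviations of same-numbered arrays correlated at r from -0.146 to 0.191, so the numbers were not taken as pairs. A fit with the replicate number as a block called 9, 3 and 2 of the 26 for the genotype averaged, on the control diet and on the ethanol diet, against 9, 2 and 1 without it. Over the 26 clock genes alone, the same-numbered arrays of null control and wild-type control livers correlated at 0.425, 0.404 and 0.651 (arrays 1, 2 and 3), where over all tested genes they did at -0.0191, -0.0608 and 0.191. In the other pairs of groups r over the 26 ran from -0.700 to 0.555.

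Over all tested genes, the count for the genotype averaged was 982 and 621 to 1314 with 1 array left out. On the control diet it was 715, 192 to 1304 with 1 array left out, 393 without the filter, 226 with only the arrays compared and 230 without array 3 of both control groups. On the ethanol diet it was 251, and 108 to 319 with 1 array left out. Ethanol in wild-type livers called 13 genes, 43 with log2(value + 16) and 810 without wild-type control 2. Ethanol averaged called 2, and 293 without that array, and the interaction 2, and 84 without it.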
